A study of Rattus norvegicus with 29 samples.

Results

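The members described here are 150 transcripts, of 28420 in the rat transcript tables, whose level after 24 h was low in cultures given gentamicin and in cultures given TCDD, and not low in cultures given acetaminophen or trichloroethylene. They were chosen from TPM values, which are read shares corrected for transcript length and scaled to a fixed library total. L is the log2 of (mean treated TPM + 1) over (mean control TPM + 1) at 24 h. A transcript was kept if its mean over the 5 control libraries was 1 to 500 TPM, L was at most -1 for gentamicin and for TCDD, and L was at least -0.5 for acetaminophen and for trichloroethylene. Of 13730 transcripts with that control level, 1080 had L of at most -1 for gentamicin and TCDD together, 746 of these missed the bound for acetaminophen or trichloroethylene, and 334 met every condition. The 150 with the lowest higher value of the gentamicin and TCDD pair were taken. The 24 h values therefore chose the members, and they are given below as a description without a test. The 6 h libraries of the treated cultures had no part in the choice, and the 6 h controls entered only through the wide window on control level.

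The 29 RNA-seq libraries came from rat cells labelled as primary renal proximal tubule epithelium, the lining of the first stretch of the nephron. The groups were gentamicin, TCDD (labelled 2,3,7,8-Tetrachlorodibenzodioxin), acetaminophen, trichloroethylene and control, each at 24 h and at 6 h, with 3 libraries per group except the 6 h control, which had replicates 2 and 3 only. The sources used here give no dose, no vehicle, and no strain, sex or age of the donor animals. The labels do not say whether replicates are separate cultures or animals, so the p-values below cover the spread between libraries, which may be technical. In bulk RNA of this kind, fewer cells of a type and less RNA per cell cannot be told apart.

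Gentamicin is an aminoglycoside antibiotic that proximal tubule cells take up by endocytosis and collect in their lysosomes, and kidney injury limits its use. TCDD is a dioxin and a ligand of the aryl hydrocarbon receptor, a transcription factor that switches on xenobiotic-metabolising enzymes. Acetaminophen is an analgesic and trichloroethylene an industrial solvent, and both can harm the renal tubule through reactive metabolites. The files name transcripts only by Ensembl identifier, without gene symbols, and the reference table held an Ensembl identifier for 0 genes. The members' functions, their sequences and the markers of the labelled cell type are therefore not described, and 4 members are printed by identifier. How many members belong to 1 gene is for the same reason not known here. Members 18 and 19 in the order of the rule had the same length (1398 bases) and the same TPM in every library. They are not separate measurements, and both are counted below.

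Library totals ran from 8243698 to 11446612 estimated counts. The TPM scale itself moved between groups at 24 h: the median L of the 13730 transcripts of like control level was -0.22 for gentamicin, -0.40 for TCDD, 0.10 for acetaminophen and 0.01 for trichloroethylene. Among the 24 h libraries, TCDD replicate 2 stood lowest, with a median over those transcripts of -0.65 relative to the control mean, against -0.38 and -0.24 in TCDD replicates 1 and 3. Mean fragment length, read as the gap between transcript length and effective length, was 234 ± 3.91 bases with TCDD, 262 ± 2.65 bases with gentamicin and 279 ± 9.60 bases in controls at 24 h (SD, n = 3 each). With acetaminophen it was 254 ± 21.0 bases and with trichloroethylene 255 ± 5.90 bases at 24 h, so all 4 treated groups had shorter means than controls. The part of scale and fragment length in the 24 h values of the members was not tested, but the members were counted again on other scales. When TPM was divided by scaling factors that take out such shifts (TMM factors), 107 of the 150 still met the thresholds. On that scale 14 members were above -1 for TCDD and 0 for gentamicin, and 20 were below -0.5 for acetaminophen and 12 for trichloroethylene. On CPM (counts scaled to library total) with TMM factors, 90 did, with 32 members above -1 for TCDD and 15 above -1 for gentamicin. There, 19 members were below -0.5 for acetaminophen and 11 for trichloroethylene. Leaving out TCDD replicate 2 on the original scale kept 149.

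At 24 h the members were at a fraction of their control level with both compounds. The median member stood at 4.62 TPM with gentamicin, 4.29 TPM with TCDD, 19.5 TPM with acetaminophen, 15.2 TPM with trichloroethylene and 16.2 TPM in controls. L ran from -2.96 to -1.22 for gentamicin, with a median of -1.52. For TCDD it ran from -3.80 to -1.23, with a median of -1.66. L was at most -2 in 12 members for gentamicin and in 37 for TCDD. In the count model described below, 143 of 147 tested members were lower with gentamicin at an adjusted p under 0.05, beside 30.5% of all tested transcripts, and 141 with TCDD, beside 33% of all. Since the rule used those contrasts, nothing is read from these counts.

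**Figure D1:**
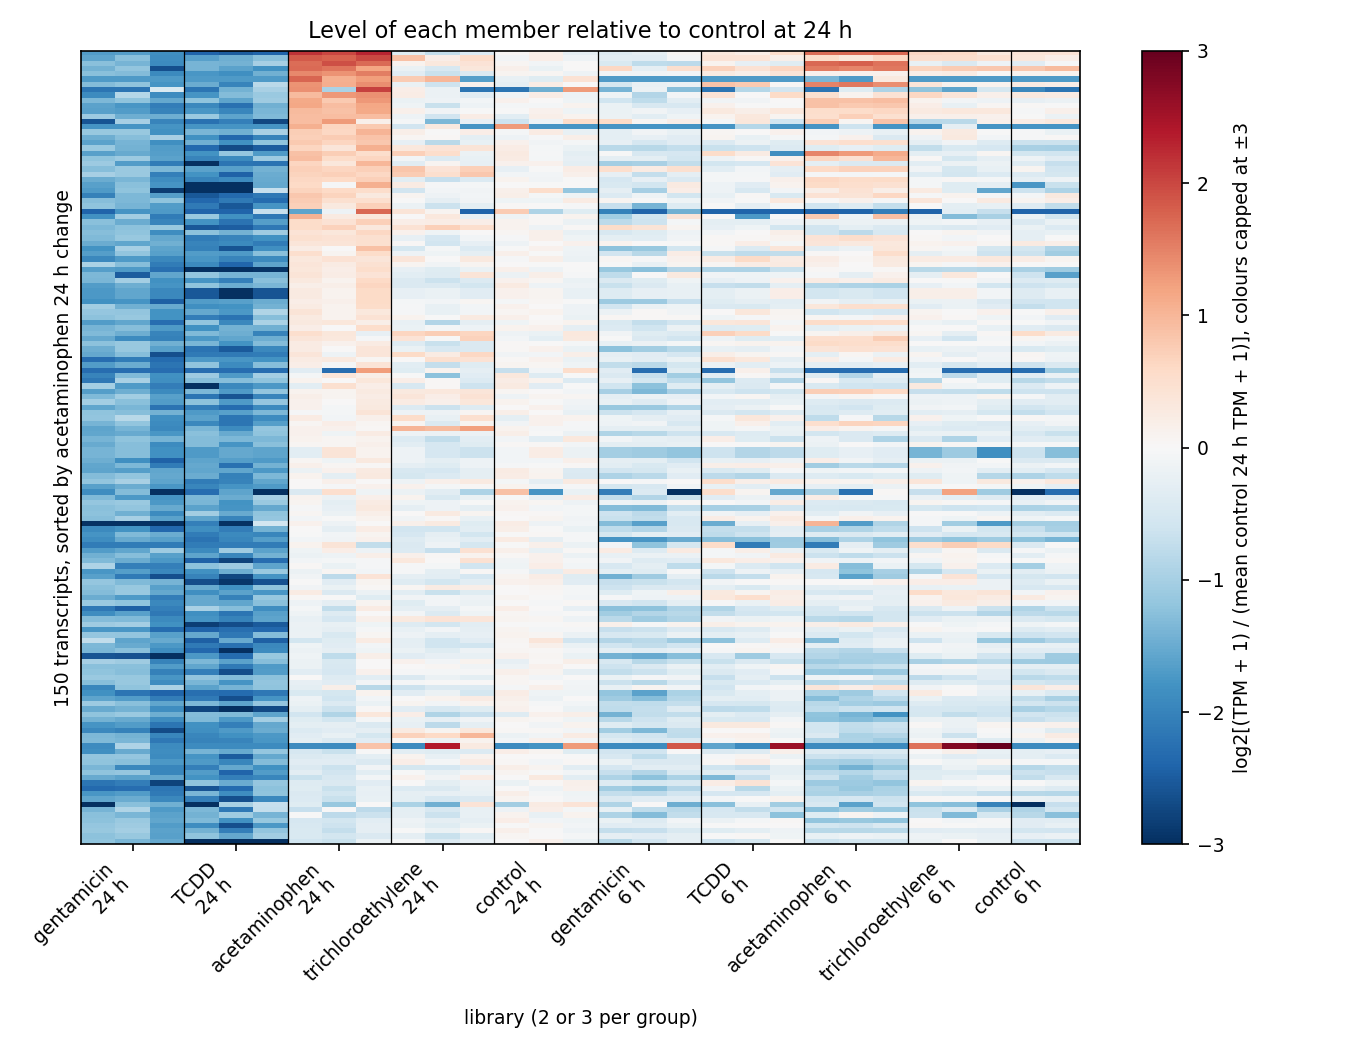
Level of each of the 150 members (rows, sorted by the acetaminophen change at 24 h) in each of the 29 libraries (columns, by group), as log2 of (TPM + 1) over (mean 24 h control TPM + 1), blue for lower and red for higher, with colours capped at 3. The 6 gentamicin and TCDD libraries at 24 h form the blue block on the left, and a band of members at the top is red with acetaminophen at both times.

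By library, the values that chose the members were as follows. All 3 gentamicin libraries lay below all 3 controls of 24 h in 146 members, and all 3 TCDD libraries did so in 143, beside 42.1% and 48.6% of the 13730 transcripts of like level. In 107 members, the 6 gentamicin and TCDD libraries of 24 h lay below every one of the other 23 libraries, beside 5.8% of those transcripts. Within gentamicin, the library medians of the members were -1.42, -1.35 and -1.84 on the log2 scale relative to the control mean. Replicate 3 was thus the lowest of its group. Within TCDD they were -1.76, -1.91 and -1.53, and the lowest was replicate 2, the library that stood lowest across the 13730 transcripts. Summed over the members, TPM was 1363, 1486 and 1053 in the gentamicin libraries of 24 h, 1003, 863 and 1266 in the TCDD libraries, and 4168, 4034 and 3791 in the controls.

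**Figure D2:**
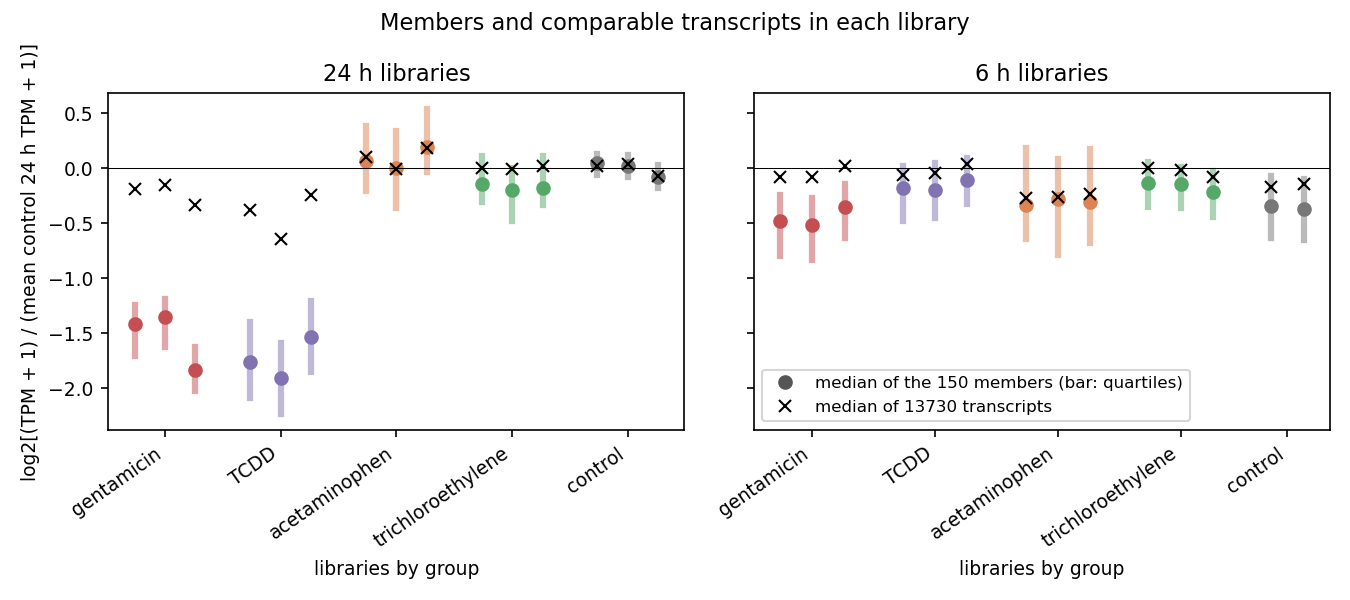
Median (circle) and quartiles (bar) of the 150 members in each library, and median of the 13730 transcripts with a control mean of 1 to 500 TPM (cross), as log2 of (TPM + 1) over (mean 24 h control TPM + 1), for 24 h on the left and 6 h on the right. At 24 h the member medians lie between -1.91 and -1.35 in gentamicin and TCDD libraries, below the crosses, while the other groups lie near 0.

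Levels at 24 h were also set against those of the 6 h cultures. Control cultures themselves had higher levels of most members at 24 h than at 6 h. The mean was higher in 127 of 150, beside 65.9% of the transcripts of like level. The median log2 ratio was 0.34, beside 0.16 in those transcripts. This ratio shares the 24 h controls with the rule. The 24 h levels with gentamicin and TCDD below are likewise those by which the members were chosen. Set against the 6 h controls, the median log2 ratio was -1.15 for gentamicin at 24 h and -1.34 for TCDD at 24 h. All 24 h libraries lay below both 6 h controls in 136 members for each compound, where 39.1% of the transcripts of like level did so for gentamicin and 45.9% for TCDD. Within the treated cultures, the 24 h mean was below the 6 h mean in 147 members with gentamicin (median log2 ratio -1.10) and in 148 with TCDD (median -1.58), beside medians of -0.15 and -0.37 in the transcripts of like level. For gentamicin and TCDD the 24 h mean was above the 6 h mean in 1 member each, beside 39.8% and 32.2% of those transcripts. With acetaminophen it was above in 131 members, beside 75.5% of those transcripts (median 0.39, beside 0.34). With trichloroethylene it was above in 82 members, beside 53.2% (median 0.05, beside 0.05). At 6 h the median member stood at 11.8 TPM with gentamicin, 14.5 TPM with TCDD, 14.3 TPM with acetaminophen, 14.0 TPM with trichloroethylene and 12.7 TPM in controls.

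At 24 h most members stood at similar levels with TCDD and with gentamicin, and a few stood far apart. The rule held both levels low, which limits how far the 2 can differ, so nothing is read from this likeness. The TCDD mean lay below the gentamicin mean in 96 of 150 members, with a median log2 ratio of TCDD over gentamicin of -0.12. This order depended on scale: with TPM divided by TMM factors the TCDD mean was lower in 73 members and the median ratio was 0. On the original scale, 110 members were within 0.5 log2 units of each other in the 2 groups, 7 were lower with TCDD by at least 1 unit and 3 lower with gentamicin by at least 1 unit. All 3 TCDD libraries lay below all 3 gentamicin libraries in 29 members and above them in 7, beside 41.4% and 23.7% of the transcripts of like level. The member with the lowest L for TCDD had 6.46, 5.95 and 7.58 TPM with TCDD, 45.3, 40.6 and 36.1 TPM with gentamicin, and 107, 119 and 92.7 TPM in controls at 24 h. Its levels thus fell into 3 separate ranges. The member with the lowest L for gentamicin had 0 TPM in all 3 gentamicin libraries, 0.891, 0 and 4.31 TPM with TCDD, and 8.02, 6.00 and 6.31 TPM in controls.

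**Figure D3:**
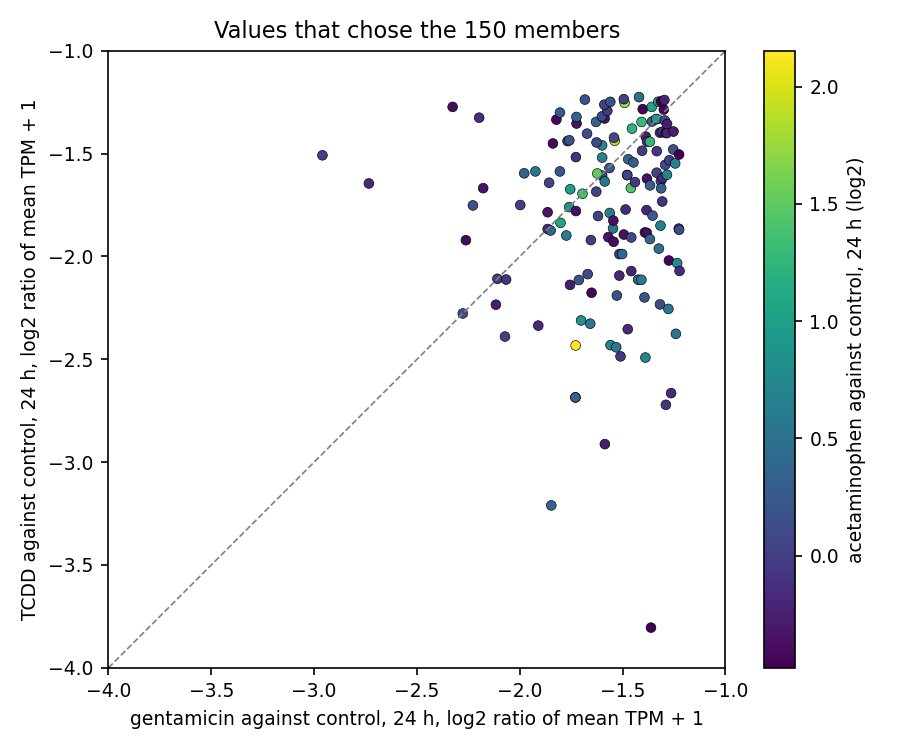
L for gentamicin (x axis) and for TCDD (y axis) at 24 h for each of the 150 members, coloured by L for acetaminophen at 24 h, with a dashed line where both are equal. These are the values that chose the members: gentamicin values reach -2.96 and TCDD values reach -3.80, and members with high acetaminophen values are spread through the cloud.

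Acetaminophen and trichloroethylene were bounded by the rule only from below, and the members spread widely above that bound. For acetaminophen at 24 h the median L was 0.09, near the 0.10 of transcripts of like level. L was at least 0.5 in 34 members and at least 1 in 11, up to 2.15. All 3 acetaminophen libraries lay above the controls in 43 members and below them in 20, beside 37.3% and 25.6% of the transcripts of like level. The balance between higher and lower turned with the scale: in the edgeR fit on counts, 35 tested members were called lower and 26 higher, beside 29.2% and 30.3% of all tested transcripts, and the median L was -0.06 on TPM divided by TMM factors. For trichloroethylene at 24 h the median L was -0.18, beside 0.01 in transcripts of like level, 142 members were within 0.5 log2 units of control, and the highest value was 1.16. In the edgeR fit 33 tested members were called lower and 11 higher, beside 19.9% and 20.7% of all tested transcripts. All 3 trichloroethylene libraries lay above the controls in 17 members and below them in 42, beside 29.1% and 24.2% of the transcripts of like level. The bound at -0.5 cut off low values for both compounds, so nothing is read from these balances.

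The cut at 150 fell in a dense stretch of values. The last member taken had a higher L of -1.22 and the first one left out also -1.22, and 184 further transcripts met the conditions, down to the threshold of -1. At the bound for acetaminophen and trichloroethylene, the lowest value among members was -0.49, and the nearest transcript left out stood at -0.50.

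Control level and length of the members lay within the range of other transcripts, with smaller shares of members at both ends of control level. Their control mean had a median of 14.3 TPM (quartiles 8.54 and 28.1, range 1.34 to 340), beside a median of 16.8 TPM in the 13730 transcripts. It exceeded 100 TPM in 4 members (2.67%, beside 9.41%) and was under 5 TPM in 18 (12%, beside 21.4%). Median length was 1934 bases among members and 1956 bases among those transcripts, and 11 members were shorter than 500 bases (7.33%, beside 5.52%). Estimated counts that were not whole, which arise where reads are divided between transcripts, occurred in 55 members (36.7%) and in 38.7% of the transcripts of like level. The cut on L limits how far its median can vary among members. It was -1.53, -1.54 and -1.47 for gentamicin in the 50 members of lowest, middle and highest control level, and -1.61, -1.78 and -1.64 for TCDD.

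Counts spanned a wider range than TPM among the members. The mean count over the 24 h controls had a median of 212 and ran from 2.30 to 3892, and it was under 10 in 7 members, 2 of them among the first 10 in the order of the rule. The first of all, ENSRNOT00000024202 (300 bases long), had 0 counts in all 6 gentamicin and TCDD libraries of 24 h, against 1, 2 and 4 counts in the 24 h controls. With acetaminophen it had 2, 0 and 6 counts at 24 h and 0 in all 3 libraries of 6 h, and the 6 h controls had 0 and 1. It was not tested, because it did not pass the filter on low counts, and since a count of 0 allows up to 3 counts in a library, no fold is given. At its length, the control counts correspond to a mean of 3.85 ± 2.02 TPM (SD, n = 3). In all, 5 members had no count in any gentamicin library of 24 h and 4 had none in any TCDD library.

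The 6 h libraries asked whether the members had already moved before the time at which they were chosen. Counts were tested for 15990 transcripts with edgeR's quasi-likelihood test, p-values were adjusted over all of them by the Benjamini-Hochberg method, and 147 members passed the filter on low counts. With gentamicin, 32 members had fallen at 6 h (21.8% of those tested), beside 4.88% of all tested transcripts. Only 2 had risen (1.36%), beside 8.34% of all. The fitted log2 changes of the 32 ran from -1.35 to -0.33, with a median of -0.61, and just 2 of them were at or below -1. Over all tested members the median was -0.26 (quartiles -0.48 and -0.04), beside 0.01 over all tested transcripts, and 114 of 147 were negative. In each 6 h comparison, 3 tested members had no count in 1 or both groups. With these set at 3 counts per library, the member median was -0.27 for gentamicin, 0.06 for TCDD, 0.17 for acetaminophen and 0.08 for trichloroethylene.

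The count for gentamicin depended on which libraries were used and on the test. It was 15 members in both directions without control replicate 2, 14 without control replicate 3 and 19 without gentamicin replicate 2, against 34 with all libraries, where 13.2% of all tested transcripts were called. The member median stayed near -0.26 in these fits, at -0.22 without control replicate 2, -0.27 without control replicate 3 and -0.25 without gentamicin replicate 2. Another scaling alone gave 32 members with median-of-ratios factors and 30 with total counts. With limma on log2(TPM + 1) it was 11, of which 8 fell. In that fit, which changes the unit, the transform and the test together, the median over all tested transcripts was 0.10, and that over the members was -0.12. The shares of all tested transcripts called in these other fits are not given here. Their counts are therefore not set against a background.

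With TCDD at 6 h, 0 of 147 members passed edgeR's test in either direction, beside 0% of all tested transcripts. At an unadjusted p under 0.05 there were 6, of which 2 were lower and 4 higher. The share of all tested transcripts at that cut is not given here, so nothing is read from these counts. DESeq2 and limma on log2(TPM + 1) also called 0 members. The median log2 change was 0.06, beside 0.03 over all tested transcripts, and 96 members were positive and 49 negative, where 44.7% of all tested transcripts were negative. Directly compared at 6 h, in a contrast that uses no control library, 49 members were lower with gentamicin than with TCDD and 2 higher, beside 7.24% and 8.84% of all tested transcripts. The median log2 ratio of gentamicin over TCDD was -0.28, beside 0.00 over all. This count was 51, beside 16.1% of all tested transcripts called in either direction. It was 30 without gentamicin replicate 2, 33 without TCDD replicate 2 and 33 with limma on log2(TPM + 1), fits whose background shares are not given here.

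With acetaminophen at 6 h, 39 members rose and 19 fell, which is 26.5% and 12.9% of those tested, beside 24.2% and 24.5% of all tested transcripts. The share that rose was thus near the background and the share that fell below it. The rule had left out transcripts with low acetaminophen values at 24 h, while the background had no such bound. Nothing is therefore read from the lower share that fell, or from the member median below. Those that rose had a median log2 change of 0.79 and reached 2.27, and those that fell had a median of -0.61 and reached -1.27. In all, 58 members passed, beside 48.8% of all tested transcripts. Over all tested members the median was 0.20, beside 0.00 over all tested transcripts. Of the 39 that rose at 6 h, 32 had L above 0 at 24 h and 15 had L of at least 0.5, while 3 of the 19 that fell had L above 0. Among all 150 members, 60 had L below 0 and 34 had L of at least 0.5, with no value below the bound of -0.5 set by the rule. The comparisons with control at 6 h all share the same 2 control libraries.

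With trichloroethylene at 6 h, 0 of 147 members passed edgeR's test, beside 0% of all tested transcripts. At an unadjusted p under 0.05 there were 13, of which 3 were lower and 10 higher. Without the share of all tested transcripts at that cut, nothing is read from this balance. DESeq2 and limma on log2(TPM + 1) called 0 members. The median log2 change was 0.09, beside 0.01 over all tested transcripts.

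**Figure D4:**
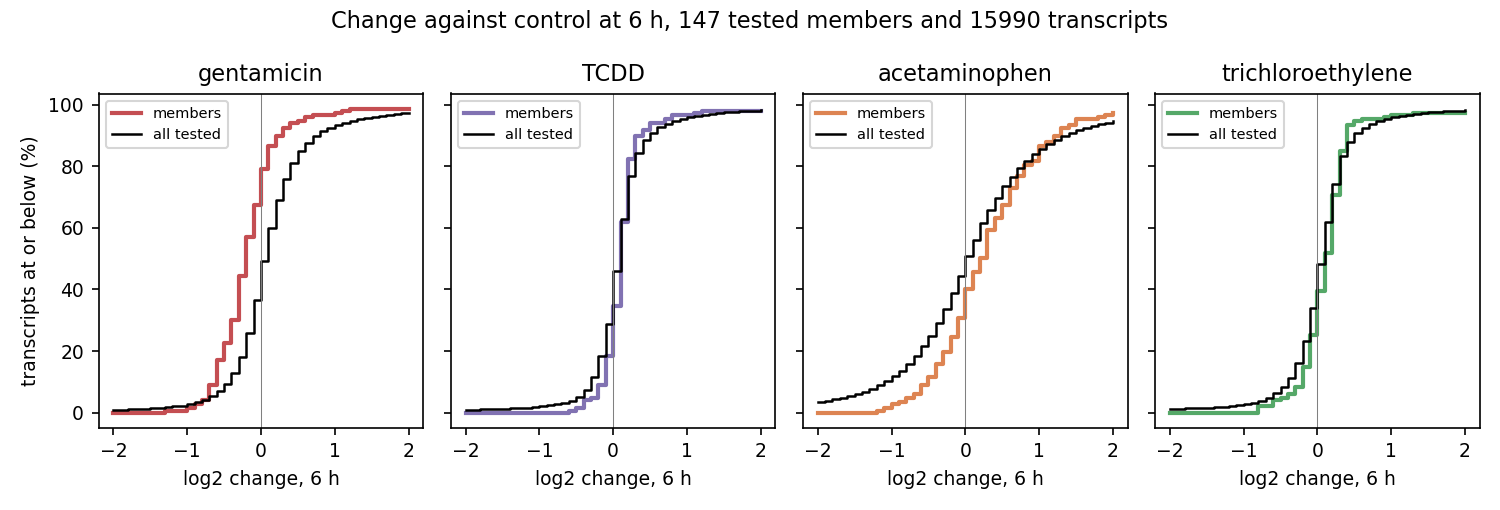
Cumulative share (%) of the 147 tested members (coloured) and of all 15990 tested transcripts (black) at or below each edgeR log2 change against control at 6 h, by compound. The gentamicin curve of the members lies to the left of the black curve around 0, with medians of -0.26 and 0.01, while the TCDD and trichloroethylene curves lie close to theirs.

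The 32 members that had fallen with gentamicin at 6 h were compared with the other 115 tested members as a description, since the 6 h call sorted them. Their median control level over the 5 libraries was 14.5 TPM, beside 14.9 TPM in the others. They were longer (median 2279 and 1794 bases) and had more counts in the 6 h controls (median 307 and 179). At 24 h they stood nearly alike, with a median L for gentamicin of -1.58 and -1.48 and for TCDD of -1.67 and -1.65. Their median level was 10.1 TPM with gentamicin and 14.5 TPM in controls at 6 h, and 4.37 TPM with gentamicin and 16.5 TPM in controls at 24 h. In the other 115 the medians were 12.5 TPM with gentamicin and 11.6 TPM in controls at 6 h. The TPM scale moved here too: on log2(TPM + 1), the median change over all tested transcripts was 0.10 with gentamicin at 6 h. Since the scale moved, no rise is read from the TPM medians of the other 115. In the count fit 114 of the 147 tested members were negative, which includes the 32 sorted out as lower. The number among the 115 alone is not given here.

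The member with the highest control level, ENSRNOT00000029660 (930 bases long), was 1 of the 2 members that rose with gentamicin at 6 h. At 24 h it had 143, 155 and 167 TPM with gentamicin, 62.4, 65.8 and 81.9 TPM with TCDD, and 393, 331 and 379 TPM in controls, so that the 3 groups did not overlap. With acetaminophen it averaged 529 ± 67.0 TPM and with trichloroethylene 541 ± 52.4 TPM (SD, n = 3 each), above every control of that time. At 6 h it had 543, 480 and 386 TPM with gentamicin and 321 and 275 TPM in controls. All 3 gentamicin libraries were above both controls, and it rose by 0.55 ± 0.18 on the log2 scale (SE, edgeR adjusted p = 0.0478). That call was lost without either control, without gentamicin replicate 1 or 2, with median-of-ratios factors, without the low-count filter and with only the compared groups in the model, where the adjusted p ran from 0.0562 to 0.345 and the log2 change from 0.41 to 0.68. With TCDD at 6 h it averaged 299 ± 43.6 TPM, and its log2 change of -0.13 ± 0.18 did not pass (edgeR adjusted p = 0.862). The direct log2 ratio of gentamicin over TCDD at 6 h was 0.68 ± 0.16 (edgeR adjusted p = 0.00488).

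Among members that rose at 6 h with any compound, the 2 smallest adjusted p-values belonged to acetaminophen and to transcripts that gentamicin moved the other way. These 2 do not stand for all. Of the 32 members that fell with gentamicin at 6 h, 11 rose and 7 fell with acetaminophen, beside 24.2% and 24.5% of all tested transcripts. ENSRNOT00000061883 (4423 bases long) had 28.1, 27.6 and 25.4 TPM with acetaminophen at 6 h, against 10.4 and 10.5 TPM in controls. It rose by 1.43 ± 0.099 on the log2 scale (SE, edgeR adjusted p = 1.17e-11). With gentamicin at 6 h it had 7.79, 5.88 and 7.74 TPM, all below both controls, and fell by 0.67 ± 0.099 on the log2 scale (edgeR adjusted p = 3.32e-05). It was also lower with gentamicin than with TCDD at 6 h, where it averaged 7.14 ± 1.09 TPM and 11.0 ± 0.609 TPM (SD, n = 3 each), a log2 ratio of -0.61 ± 0.091 (edgeR adjusted p = 2.67e-05). By 24 h its means were 4.49 TPM with gentamicin, 5.62 TPM with TCDD, 18.5 TPM with acetaminophen, 20.9 TPM with trichloroethylene and 16.5 TPM in controls.

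ENSRNOT00000010696 (3027 bases long) was high with acetaminophen and low with gentamicin and TCDD at 24 h. It then had 7.08, 7.16 and 6.18 TPM with gentamicin, 3.90, 3.59 and 3.89 TPM with TCDD, 115, 102 and 125 TPM with acetaminophen, 19.2, 14.8 and 18.5 TPM with trichloroethylene, and 25.6, 28.4 and 20.6 TPM in controls. None of these 5 groups overlapped, the trichloroethylene libraries too lay below every control, and its L for acetaminophen of 2.15 was the highest of all members. At 6 h it had 82.3, 83.5 and 84.7 TPM with acetaminophen, against 33.0 and 33.3 TPM in controls, a rise of 1.39 ± 0.12 on the log2 scale (SE, edgeR adjusted p = 4.89e-10). With gentamicin at 6 h it had 18.7, 20.5 and 26.0 TPM, below both controls in every library, and fell by 0.73 ± 0.12 on the log2 scale (edgeR adjusted p = 7.67e-05). With TCDD at 6 h it had 31.4, 29.1 and 36.5 TPM, which overlapped the controls, and gentamicin was lower than TCDD by a log2 ratio of -0.55 ± 0.11 (edgeR adjusted p = 0.000652).

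**Figure D5:**
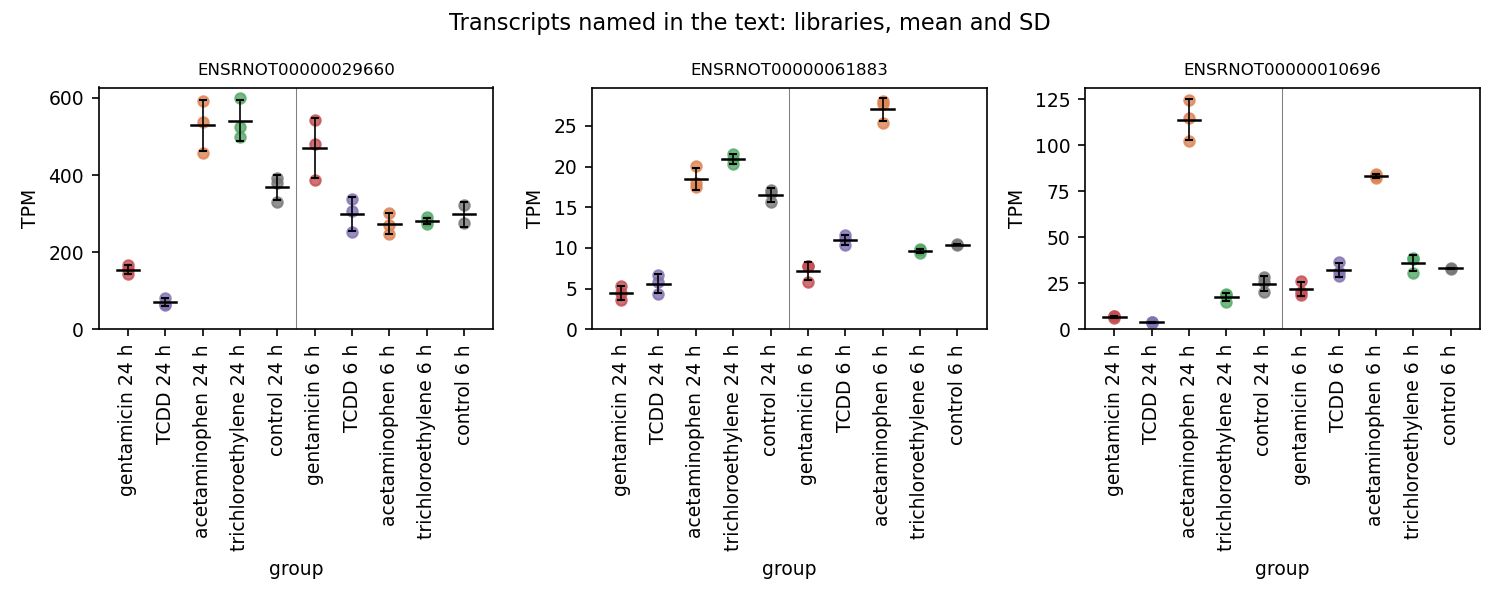
TPM in each library (points) with the group mean and SD (black) for the 3 printed members with more than a few counts, with 24 h groups left of the line and 6 h groups right of it. Gentamicin and TCDD means at 24 h lie below every other group mean in each panel, and at 6 h acetaminophen lies highest for ENSRNOT00000061883 and ENSRNOT00000010696 and gentamicin for ENSRNOT00000029660.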

How the data were processed

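Reads were assigned to transcripts by pseudoalignment with kallisto 0.43, per the submitters' processing notes. No source used here gives the transcript set, build, strand setting or trimming. Each deposited table has 1 row per transcript, with the estimated count made by the authors, an expected count that need not be whole (20.1% of values were not). The deposited TPM values were made by the authors from these counts, transcript length and library total, per the file headers. Reads shared between similar transcripts were divided among them by the tool.

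The members and lists were chosen with earlier results of these data known. Mean TPM per group gave L and the members. Estimated counts were rounded and filtered with filterByExpr (minimum count 10), which left 15990 transcripts and 99.9% of counts. They were fitted with edgeR 4.0.16 in R 4.3.3 (TMM factors, robust quasi-likelihood, 10 groups in 1 model, 19 residual degrees of freedom). Calls are at a Benjamini-Hochberg adjusted p under 0.05 over all tested transcripts. SE is the log2 change divided by the square root of F. The steps were tested on simulated counts. Replicates were not duplicates (chi-square per degree of freedom from 3.01 to 30.3). The floor of 3 counts per library covers counting error only, while SD and SE include the spread between libraries.

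Alternatives were DESeq2 1.42.0, limma 3.58.1 on log2(TPM + 1) and log2(TPM + 0.1), other scaling factors, filters and dispersion, a fragment length covariate, a replicate block, only the compared groups, and leaving out each library. Printed by identifier are the first member in the order of the rule, the member with the highest control mean, and the 2 with the smallest adjusted p among members called higher at 6 h. The 2 members with the lowest L for TCDD and for gentamicin were described after their values were seen. The gene lists and cell type markers planned by symbol were not used, because identifiers could not be paired with symbols.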

Additional observations from a re-analysis of the deposited data

Results flagged for a closer look

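ENSRNOT00000029660 lay on opposite sides of its controls at the 2 times with gentamicin. At 24 h its mean was 155 TPM with gentamicin and 368 TPM in controls, and at 6 h it was 470 TPM (469.5) with gentamicin and 298 TPM in controls, with no overlap at either time. The difference between the times was not tested, since the 24 h values chose the members.

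ENSRNOT00000061883 did the same with trichloroethylene. Its mean was 20.9 TPM with trichloroethylene and 16.5 TPM in controls at 24 h, and 9.62 TPM with trichloroethylene and 10.4 TPM in controls at 6 h, again with no overlap at either time. The 6 h difference is small, -0.24 ± 0.099 on the log2 scale (SE, edgeR adjusted p = 0.365), and the difference between the times was not tested.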

How the results depend on the processing

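Of 99 recomputed counts, 89 stayed within 1.5 times the reported one. They include the TCDD and trichloroethylene comparisons with control, where 0% of all tested transcripts were called, so the 89 does not describe the gentamicin counts. The 10 that moved lay in the gentamicin comparisons at 6 h and in the members admitted on CPM with TMM factors. The shares of all tested transcripts called under the other settings are not given here. The counts of called members below are therefore not set against a background. The members called with gentamicin at 6 h, 34 in both directions, numbered 11 with limma on log2(TPM + 1) and 10 on log2(TPM + 0.1), and 14 to 26 without 1 library. The gentamicin and TCDD comparison, 51, gave 33 and 28 with these limma fits and 30 to 42 without 1 library. Acetaminophen, 58, gave 41 to 55 without 1 library and 49 to 82 otherwise. TCDD and trichloroethylene gave 0 under every setting run. Of the 150 members, 90 met the thresholds on CPM with TMM factors, 107 on TPM divided by TMM factors, 137 with a pseudocount of 0.1, and 122 to 150 without 1 library of 24 h. The change of ENSRNOT00000029660 with TCDD at 6 h reversed to 0.00031 and 0.00029 with the limma fits, 0.0033 without control replicate 2 and 0.012 without TCDD replicate 3, and it was -0.25 without control replicate 3. The cause was not tested. The acetaminophen and gentamicin calls of the other 2 printed members were kept under every setting run. Replicate numbers showed little sign of pairing at 6 h. Of 26 same-numbered pairs between 6 h groups, the correlation of deviations exceeded 0.1 in 1 (median 0.01, highest 0.20). Of 52 other-numbered pairs it did so in 3 (median 0.0015, highest 0.14). With so few libraries per group this cannot exclude pairing, and the 24 h libraries were not checked. The replicate block gave 33 members for gentamicin, 58 for acetaminophen, 51 for gentamicin against TCDD and 0 for the others. With a lone 6 h control, the other groups supply its spread, which is an assumption. Depth limits the 7 members with under 10 counts in the 24 h controls.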
